A study of Oryctolagus cuniculus with 20 samples.

Results

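Tricuspid valves from 5 rabbits that drank pergolide were compared, gene by gene, with tricuspid valves from 5 untreated rabbits. Those 10 valves are all the valves that the labels place in either group, out of 20 in the series. The remaining valves, 5 from rabbits given serotonin and 5 from rabbits given dexfenfluramine, serve here for direct tests against pergolide. They also entered the 1 model of all 20 valves, and so the choice of tested genes and the estimate of spread behind every test. All animals were female New Zealand White rabbits aged 8 weeks at the start. Pergolide was given by mouth at 0.5 mg/kg per day for 16 weeks, and the untreated rabbits received water without a drug. The serotonin rabbits received 80 mg/kg per day and, by the labels, the dexfenfluramine rabbits 20 mg/kg per day over the same 16 weeks. The sources used here do not give a single dexfenfluramine dose, and doses differ between all the treatments. Total RNA from each frozen valve was depleted of ribosomal RNA and sequenced, so a library holds the RNA of every cell type in the dissected valve.

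Pergolide is an ergot-derived dopamine agonist that was used against Parkinson disease and also activates the 5-HT2B serotonin receptor, the receptor most closely tied to valve disease caused by such drugs. Heart valve leaflets are built from layers of collagen, proteoglycan and elastic fibres, which valvular interstitial cells make and renew under an endothelial covering. Activated interstitial cells respond to TGF-beta and other growth factors by making and digesting more matrix, which is the hallmark of leaflet thickening.

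The pergolide libraries held 4484239 to 5921025 counted reads and the untreated libraries 4206516 to 5831376, with means that differed little (exact permutation p = 0.984, 5 against 5 valves). Pergolide valves had a count for 11179.6 ± 55.1 genes (SD, n = 5) and untreated valves for 10864.8 ± 253.1 (exact permutation p = 0.0397). The most abundant gene, ENSOCUG00000029084, which has no symbol, took 32.9% ± 2.13 of the counts in pergolide valves and 40.7% ± 7.39 in untreated valves (exact permutation p = 0.0556). Its share was 42.0, 40.4, 28.5, 48.1 and 44.4% in untreated replicates 1 to 5, so untreated replicate 3 stood below the rest. Levels below are CPM, a gene's counts relative to its library's total after scaling for library composition, which limits the effect of this gene's share on all others.

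Markers of the labelled tissue were present in all 10 valves. The summed CPM of 10 measured markers of valvular interstitial cells and fibroblasts, led by the intermediate filament gene VIM, was 7947, 8959, 7535, 9474 and 11194 in the pergolide valves and 7292, 6624, 8142, 5513 and 5969 in the untreated valves. The valves also held heart muscle RNA. The 25 measured cardiomyocyte markers, led by the giant sarcomere gene TTN, summed to 87707, 97878, 98551, 56348 and 51289 CPM in pergolide valves and to 151401, 114088, 53692, 161718 and 103923 CPM in untreated valves. Untreated replicate 3 and pergolide replicates 4 and 5 therefore carried the least muscle RNA of these 10 valves, and none of the markers in either list was at 0. The labels give no batch of dissection, library preparation or sequencing, so a batch shared by a treatment group cannot be told apart from the treatment.

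Of 8683 genes tested, 2157 (24.8%) differed between pergolide and untreated valves at an adjusted p under 0.05, 1052 (12.1%) higher and 1105 (12.7%) lower in pergolide valves; such genes are called below, and only they are said to have risen or fallen. Most changes were small. The median log2 fold change was 0.58 among genes that rose and -0.58 among genes that fell, and 1838 of the called genes (85.2%) changed by less than 1 log2 unit. The CPM of the 5 pergolide valves did not overlap that of the 5 untreated valves for 1414 genes (16.3%), 1301 of them called, which is 60.3% of called genes. Only genes with a symbol can be described by name, and the symbols come from a table in which the study lists genes it had selected on these same samples. Among the 3454 tested genes with a symbol, 1960 (56.7%) were called, 28.1% higher and 28.6% lower, against 197 of 5229 (3.77%) without one. Counts of called members in the gene lists below have to be read against those symbol-gene shares and are not independent evidence of a direction. The 40 lists name 1549 genes, of which 683 have a symbol. List members without a symbol were not analysed, whatever their counts. With surrogate variables, which are estimated from the counts to absorb variation that the groups do not explain, the edgeR fit called 1115 genes, of which 887 were among the 2157. Of the 1115, 534 were higher and 581 lower in pergolide valves. List counts under that fit stand below beside the counts they replace, in the same order. The shares of 28.1% and 28.6% do not apply to them, and the share for genes with a symbol under that fit is not given here. A list's loss of calls therefore has to be read beside the general loss. The limma-voom form of that fit is named where it is meant.

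The 15 largest rises among genes with a symbol, enough counts and no overlap include genes of varied function. CYP3E1 (ENSOCUG00000017185), a cytochrome P450 gene, was at 27.6, 51.9, 42.1, 18.3 and 47.3 CPM in the pergolide valves and at 2.89, 4.06, 1.23, 4.71 and 3.22 CPM in the untreated valves (log2 fold change 3.59, SE 0.76, adjusted p = 0.00184). The absence of overlap in these 15 genes follows from how they were chosen. KLB (ENSOCUG00000009086), the co-receptor that lets FGF21 and FGF19 signal, was at 13.0, 15.4, 11.4, 6.51 and 8.89 CPM with pergolide and 1.44, 0.542, 1.05, 2.35 and 1.84 CPM without (log2 fold change 2.94, SE 0.59, adjusted p = 0.00114). CIDEA (ENSOCUG00000011380), a lipid droplet protein gene, reached 49.4, 42.9, 30.8, 13.7 and 42.0 CPM against 5.41, 2.44, 5.27, 10.9 and 1.15 CPM (log2 fold change 2.86, SE 0.66, adjusted p = 0.00324). Pergolide replicate 4 was the lowest of its group for both KLB and CIDEA. ABCD2, which carries very long-chain fatty acids into peroxisomes, was at 19.3, 27.0, 16.2, 8.97 and 20.8 CPM against 2.53, 1.63, 2.46, 5.00 and 3.22 CPM (log2 fold change 2.64, SE 0.52, adjusted p = 0.00105). PPARG, the master transcription factor of fat cells, was at 17.2, 18.3, 12.9, 6.68 and 8.18 CPM against 3.25, 2.17, 2.28, 5.59 and 2.53 CPM (log2 fold change 2.03, SE 0.50, adjusted p = 0.00514). MGST1, a microsomal glutathione transferase, rose by 2.05 and HP, which encodes the haemoglobin-binding haptoglobin, by 1.91 log2 units, both without overlap.

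Of 8 tested adipocyte markers 7 rose and none fell, with a list median of 2.14 against 0.02 over all tested genes. With surrogate variables 2 rose and none fell (median 1.33). AQP7, the glycerol channel of fat cells, was at 4.79, 3.59, 2.74, 2.11 and 1.96 CPM in pergolide valves and 0.361, 0.813, 0.527, 0.882 and 0.23 CPM in untreated valves (log2 fold change 2.39, SE 0.58, adjusted p = 0.00488). THRSP, a promoter of lipid synthesis, was at 4.98, 6.83, 5.48, 0.879 and 3.20 CPM against 0.361, 0.271, 0.878, 0.294 and 0.92 CPM (log2 fold change 2.79, SE 0.64, adjusted p = 0.00326), with pergolide replicate 4 inside the untreated range. ADIPOQ, the gene of the hormone adiponectin and the most abundant adipocyte marker by CPM, was at 115, 117, 62.8, 39.0 and 64.9 CPM against 27.1, 19.2, 16.9, 55.6 and 27.6 CPM (log2 fold change 1.46, SE 0.51, adjusted p = 0.0426). The ADIPOQ groups overlapped, and its adjusted p was 0.0964 without pergolide replicate 1, 0.0967 without pergolide replicate 2, 0.0545 without pergolide replicate 5, 0.0814 without untreated replicate 1, 0.0963 without untreated replicate 2, 0.0861 without untreated replicate 3 and 0.0785 without untreated replicate 5. Summed over the list, adipocyte markers were at 283, 302, 192, 103 and 176 CPM in pergolide valves and at 80.4, 53.4, 44.9, 124 and 47.2 CPM in untreated valves, so pergolide replicate 4 fell below untreated replicate 4. The count of 7 became 4 without pergolide replicate 1, untreated replicate 2 or untreated replicate 5. HP stayed called with surrogate variables, whereas CYP3E1, KLB, CIDEA, ABCD2, MGST1, PPARG, AQP7, THRSP and ADIPOQ were no longer called. In that edgeR fit the log2 fold changes of CYP3E1 and CIDEA were 2.08 and 1.6 (adjusted p = 0.12 and 0.136). Those of KLB, ABCD2, PPARG and MGST1 were 1.86, 1.74, 1.36 and 1.28 (adjusted p = 0.0543, 0.0546, 0.0555 and 0.0594). Whether fat cells in the dissected tissue account for their rise was not tested, and in whole valves more cells of a type and more RNA per cell cannot be told apart.

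**Figure D1:**
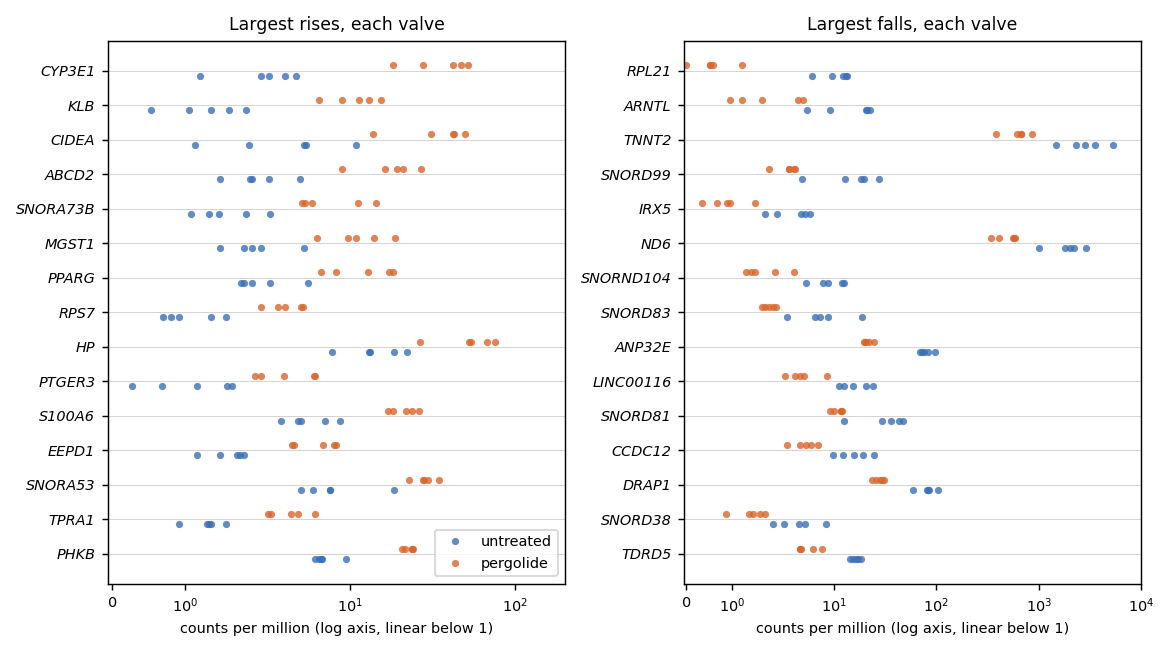
CPM in each of the 5 pergolide (orange) and 5 untreated (blue) valves for 15 genes that rose and 15 that fell; the axis is logarithmic above 1 and linear below. Only called genes that have a symbol, average 1 or more in log2 CPM over the 10 valves and separate the groups fully could be chosen, so genes of lower level with larger changes are left out and the separation seen comes from the choice; the largest fold changes shown are CYP3E1 at 3.59 and RPL21 at -4.16 on the log2 scale.

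Other genes among the 15 largest rises serve varied functions. S100A6, a calcium-binding protein, was at 26.2, 21.7, 16.9, 18.3 and 23.7 CPM in pergolide valves and 5.05, 8.67, 7.02, 3.82 and 4.83 CPM in untreated valves (log2 fold change 1.84, SE 0.25, adjusted p = 3.10e-05). PHKB, a regulatory subunit of the kinase that switches on glycogen breakdown, was at 20.5, 24.1, 21.5, 23.6 and 23.7 CPM against 6.13, 6.77, 9.48, 6.47 and 6.67 CPM (log2 fold change 1.65, SE 0.14, adjusted p = 2.21e-07). The spread of PHKB within each group was small beside the difference between them. TPRA1 rose by 1.67 and EEPD1 by 1.75 log2 units. PTGER3, the EP3 receptor for prostaglandin E2, rose by 1.84 (SE 0.61, adjusted p = 0.0326). That call rested on single valves, with an adjusted p of 0.0708 without pergolide replicate 1, 0.0747 without pergolide replicate 5, 0.0811 without untreated replicate 2, 0.0575 without untreated replicate 4 and 0.0778 without untreated replicate 5, and it was lost with surrogate variables.

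Circadian clock genes were called in both directions. The clock activator ARNTL, also called BMAL1, was at 0.958, 4.44, 1.26, 4.92 and 1.96 CPM in pergolide valves and 20.9, 5.42, 22.6, 20.6 and 9.20 CPM in untreated valves (log2 fold change -2.50, SE 0.57, adjusted p = 0.00324). NR1D2, a repressor of ARNTL, was at 463, 421, 370, 356 and 431 CPM against 102, 234, 269, 143 and 247 CPM (log2 fold change 1.03, SE 0.21, adjusted p = 0.00111). These opposite partners of the clock loop thus moved in opposite directions, each without overlap. HLF, a clock-driven transcription factor, rose (log2 fold change 0.78, SE 0.18, adjusted p = 0.00342) and NFIL3, which binds the same DNA elements as a repressor, fell (log2 fold change -1.45, SE 0.39, adjusted p = 0.00901). Of 9 tested clock genes 4 rose and 3 fell; with surrogate variables these were 3 and 0. The edgeR fit with surrogate variables no longer called ARNTL, at a log2 fold change of -2.25, or NFIL3, at -0.64; the limma-voom form kept the call of ARNTL (-2.69) but not of NFIL3 (-0.74). The labels give no time of day at which the animals were killed, so time of death cannot be told apart from treatment.

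The 15 largest falls include 5 small nucleolar RNAs, described below, and genes of heart muscle and mitochondria. TNNT2 (ENSOCUG00000015634), cardiac troponin T of the thin filament, was at 677, 676, 857, 385 and 619 CPM in pergolide valves and 5331, 2817, 1469, 3574 and 2305 CPM in untreated valves (log2 fold change -2.27, SE 0.45, adjusted p = 0.00109). The 15 falls were taken only from genes without overlap, so full separation, untreated replicate 3 included, comes from the choice. With surrogate variables TNNT2 stayed called at a smaller log2 fold change, -1.41 in edgeR and -1.39 in limma-voom. TTN, in contrast, was at 61434, 66585, 69490, 40745 and 36934 CPM against 86498, 72283, 36419, 110639 and 67809 CPM and was not called (log2 fold change -0.44, SE 0.37, adjusted p = 0.41). Of 25 tested cardiomyocyte markers TNNT2 alone was called, although the list's median was -0.61; without untreated replicate 3 the count of falls was 6, and without pergolide replicate 3 it was 2. The fit with surrogate variables called 2 rises and 1 fall in that list (median -0.13). IRX5, a homeodomain factor of heart patterning, fell (log2 fold change -2.11, SE 0.48, adjusted p = 0.00289), as did LINC00116, which encodes a small mitochondrial protein (log2 fold change -1.69, SE 0.25, adjusted p = 7.01e-05). ND6 (ENSOCUG00000029113), a complex I subunit encoded by mitochondrial DNA, was at 562, 570, 591, 406 and 342 CPM against 2225, 2008, 1005, 2937 and 1814 CPM (log2 fold change -2.02, SE 0.33, adjusted p = 1.82e-04).

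All 13 tested mitochondrially encoded genes had a negative log2 fold change, from -2.02 to -0.74, and 8 of them fell. ND4L fell (log2 fold change -1.40, SE 0.33) and so did CYTB (log2 fold change -1.19, SE 0.35). ND6 lies on the opposite DNA strand from its neighbours, and ND4L overlaps ND4; the strand setting of the counting is not given in the sources used here, so these levels are uncertain. The count of 8 became 3 without pergolide replicate 4, pergolide replicate 5 or untreated replicate 4, and 4 without untreated replicate 1. Pergolide replicates 4 and 5, with the least muscle RNA of their group, had the lowest ND6, ND4L and CYTB of these 10 valves. With surrogate variables 6 of the 13 fell, ND6, ND4L and CYTB among them, and the list's median was -0.36 in place of -1.07. Whether the amount of muscle in each valve accounts for the difference was not tested.

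Of 32 tested nuclear-encoded subunits of the respiratory complexes 4 fell and none rose (median -0.41); 0 were called without pergolide replicate 4, pergolide replicate 5, untreated replicate 1 or untreated replicate 4, 2 without untreated replicate 2 and 9 without untreated replicate 3. In the fits with surrogate variables the calls turned to 5 rises and 0 falls in edgeR (median 0.14) and 7 rises and 0 falls in limma-voom (median 0.15), so this list has no settled direction. In the pyruvate dehydrogenase and citric acid cycle list 2 of 17 rose and 2 fell, or 3 and 1 with surrogate variables. PDK3, one of the kinases that switch pyruvate dehydrogenase off, was at 15.1, 12.0, 12.9, 17.2 and 13.3 CPM against 4.33, 8.40, 8.25, 6.77 and 8.05 CPM (log2 fold change 0.95, SE 0.18, adjusted p = 8.86e-04). PDK2, another such kinase, was at 14.6, 17.4, 16.0, 11.6 and 13.3 CPM against 36.1, 31.2, 11.9, 33.5 and 29.9 CPM (log2 fold change -0.95, SE 0.24, adjusted p = 0.00641), with untreated replicate 3 inside the pergolide range. The falls in that list numbered 4 without untreated replicate 3 and 1 without pergolide replicate 1, pergolide replicate 3 or untreated replicate 5. In glycolysis and glycogen metabolism 4 of 16 rose and 2 fell (5 and 0 with surrogate variables), the falls numbering 1 without pergolide replicate 4, pergolide replicate 5 or untreated replicate 1. ENO1, the glycolytic enolase, was at 165, 170, 159, 175 and 163 CPM against 116, 114, 102, 109 and 112 CPM (log2 fold change 0.59, SE 0.07, adjusted p = 7.74e-06), and UGP2, which makes the sugar donor of glycogen, rose by 0.64 log2 units.

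Of 14 tested fatty acid oxidation genes 3 fell and none rose, a smaller share of falls than the 28.6% of all genes with a symbol. The calls turned with surrogate variables, to 3 rises and 0 falls in edgeR and 4 rises and 0 falls in limma-voom (median -0.04 in each). ACOT13, a mitochondrial acyl-CoA thioesterase, fell from 28.1, 15.4, 16.2, 23.5 and 30.1 CPM in untreated valves to 14.6, 7.69, 8.85, 4.05 and 3.91 CPM in pergolide valves (log2 fold change -1.54, SE 0.39, adjusted p = 0.00616). The count of 3 falls was 5, with 1 rise, without untreated replicate 3, and 1 without pergolide replicate 4, pergolide replicate 5, untreated replicate 1 or untreated replicate 4. Of 19 genes of lipid and cholesterol synthesis 9 rose and 1 fell (4 and 0 with surrogate variables), the falls numbering 0 without pergolide replicate 2, 4 or 5 or untreated replicate 1 or 4, and 2 without untreated replicate 3. ACACA, the enzyme that commits carbon to fatty acids, was at 92.9, 89.7, 101, 104 and 84.9 CPM against 54.5, 62.6, 61.8, 58.8 and 55.9 CPM (log2 fold change 0.68, SE 0.09, adjusted p = 1.74e-05). SCAP, the sterol-sensing escort of the transcription factor SREBP, rose from 17.0, 13.0, 19.1, 10.9 and 15.6 CPM to 23.9, 23.6, 24.7, 30.4 and 31.5 CPM (log2 fold change 0.82, SE 0.16, adjusted p = 9.15e-04). With surrogate variables ACACA remained called and ACOT13, SCAP and PDK2 did not. Among 14 genes of AMPK and energy sensing 3 fell and 1 rose (3 and 0 with surrogate variables), with 6 falls without untreated replicate 3 and 2 rises without pergolide replicate 3. PRKAA1, a catalytic subunit of AMPK, fell from 42.6, 49.0, 46.2, 50.0 and 52.5 CPM to 32.2, 36.4, 35.6, 33.2 and 32.0 CPM (log2 fold change -0.51, SE 0.08, adjusted p = 1.57e-04). PRKAA2, the other catalytic subunit, was at 45.3 ± 8.15 CPM (SD, n = 5) in pergolide valves and 48.2 ± 12.1 CPM in untreated valves and was not called (adjusted p = 0.83). CAMKK1, a kinase related to the activator of AMPK, rose by 0.98 log2 units, a call lost with surrogate variables.

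Only 4 of 11 fibrillar collagens in the list had a symbol, and all 4 rose (median 0.95). With surrogate variables 1 rose in edgeR and 2 in limma-voom, with a median of 0.48 in each. COL3A1 (ENSOCUG00000014988), the type III collagen chain, was at 1936, 2027, 1787, 1925 and 2777 CPM in pergolide valves and 784, 1155, 1460, 923 and 899 CPM in untreated valves (log2 fold change 1.00, SE 0.17, adjusted p = 2.13e-04). COL1A2 (ENSOCUG00000012264) and COL1A1 encode the chains of type I collagen, the main load-bearing fibre. COL1A2 was at 875, 943, 1125, 1054 and 1390 CPM against 470, 563, 771, 584 and 483 CPM (log2 fold change 0.91, SE 0.17, adjusted p = 6.47e-04), and COL1A1 at 143, 145, 293, 216 and 299 CPM against 84.8, 87.0, 117, 146 and 87.2 CPM (log2 fold change 1.07, SE 0.24, adjusted p = 0.00294). COL3A1 and COL1A2 separated the groups, while for COL1A1 pergolide replicates 1 and 2 fell below untreated replicate 4. COL5A2, which limits fibril diameter, rose by 0.42 log2 units. SERPINH1 (ENSOCUG00000026029), the chaperone that collagen needs to fold, was at 19.0, 31.1, 24.9, 29.0 and 26.3 CPM against 10.5, 9.75, 14.6, 7.35 and 12.2 CPM (log2 fold change 1.24, SE 0.19, adjusted p = 1.26e-04). In the collagen processing list 3 of 11 rose and 1 fell, near the 28.1% of all genes with a symbol that rose (2 and 0 with surrogate variables), with 5 rises without untreated replicate 3 and 2 falls without pergolide replicate 2. COL3A1 and SERPINH1 kept their calls with surrogate variables. COL1A1 and COL5A2 lost theirs in both forms of that fit, and COL1A2 in edgeR but not in limma-voom.

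Of 9 tested basement membrane genes 6 rose and none fell, or 3 without pergolide replicate 4 or untreated replicate 2. With surrogate variables 2 rose, so that 4 fewer were called, and the median went from 0.55 to 0.27. LAMA1, a laminin chain, was at 77.2, 95.3, 80.9, 96.9 and 101 CPM in pergolide valves and 41.8, 43.1, 59.2, 35.0 and 33.4 CPM in untreated valves (log2 fold change 1.08, SE 0.23, adjusted p = 0.00206). NID1, which links laminin to type IV collagen, was at 28.7, 91.6, 50.4, 36.6 and 57.5 CPM against 30.7, 19.0, 17.4, 18.5 and 27.4 CPM (log2 fold change 1.24, SE 0.31, adjusted p = 0.00588), with pergolide replicate 1 inside the untreated range. Of 20 elastic fibre and matrix glycoprotein genes 11 rose and none fell (8 and 0 with surrogate variables), although 1 fell without pergolide replicate 4 or untreated replicate 4. FBN1, the backbone of microfibrils, was at 1356, 1467, 1255, 1437 and 1554 CPM against 794, 915, 1186, 771 and 826 CPM (log2 fold change 0.65, SE 0.12, adjusted p = 4.14e-04), and LTBP1, which stores latent TGF-beta on them, rose by 0.62 log2 units. FBLN7, an adhesion protein of the fibulin family, was at 48.1, 48.2, 67.4, 55.9 and 68.5 CPM against 28.1, 16.8, 28.4, 22.1 and 20.0 CPM (log2 fold change 1.32, SE 0.18, adjusted p = 3.66e-05). MGP, an inhibitor of calcification, was at 907, 863, 912, 907 and 886 CPM against 817, 421, 509, 475 and 499 CPM (log2 fold change 0.72, SE 0.17, adjusted p = 0.00472), with untreated replicate 1 closest to the pergolide valves. LAMA1, NID1, FBN1, LTBP1, FBLN7 and MGP stayed called with surrogate variables.

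Of 22 proteoglycan and hyaluronan genes 8 rose and 1 fell, beside 28.1% and 28.6% of all genes with a symbol; with surrogate variables 2 rose and 1 fell. The rises numbered 4 without pergolide replicate 5 or untreated replicate 1, and 5 without pergolide replicate 2, pergolide replicate 4, untreated replicate 2 or untreated replicate 4; the fall was absent without pergolide replicate 2 or untreated replicate 5. LUM, the collagen-organising proteoglycan lumican, was at 235, 256, 198, 206 and 325 CPM against 134, 144, 153, 198 and 133 CPM (log2 fold change 0.68, SE 0.17, adjusted p = 0.006). HAS2, the main hyaluronan synthase, was at 66.7, 44.3, 77.8, 86.2 and 84.1 CPM against 37.5, 43.9, 55.1, 18.2 and 50.4 CPM (log2 fold change 0.79, SE 0.22, adjusted p = 0.0125), and ASPN, a TGF-beta-binding proteoglycan, rose by 0.92 log2 units. HAPLN1, which fixes hyaluronan to proteoglycans, was at 40.8, 44.9, 53.7, 57.7 and 67.8 CPM against 25.6, 64.2, 50.0, 16.2 and 39.8 CPM and was not called (log2 fold change 0.42, SE 0.31, adjusted p = 0.338). Of 15 matrix proteases and their inhibitors 10 rose and none fell, among them ADAMTS12 (log2 fold change 0.66, SE 0.17, adjusted p = 0.00698), and 2 rose with surrogate variables. Only 3 were called without pergolide replicate 5, untreated replicate 1, untreated replicate 2 or untreated replicate 4, and 4 without pergolide replicate 4. LUM, HAS2, ADAMTS12 and COL14A1 lost their calls with surrogate variables. Among 6 other collagens 2 rose (1 with surrogate variables), led by COL14A1 (log2 fold change 0.78, SE 0.15, adjusted p = 7.33e-04), with 4 rises without untreated replicate 3 and 1 without pergolide replicate 2, pergolide replicate 5, untreated replicate 1, untreated replicate 4 or untreated replicate 5.

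**Figure D2:**
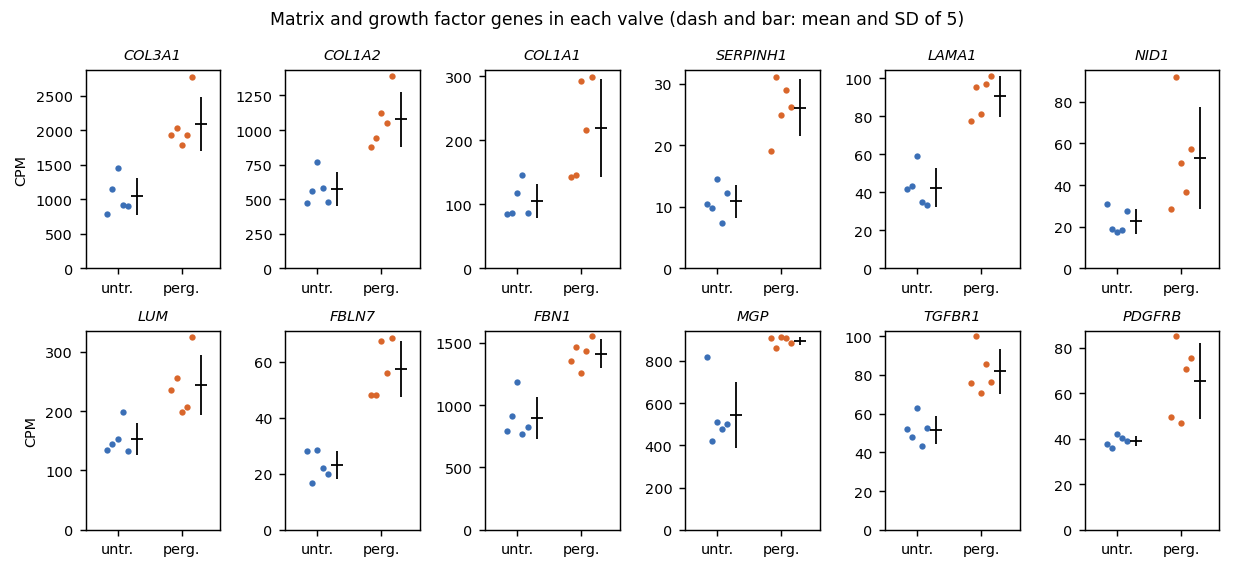
CPM of 12 matrix and growth factor genes in each pergolide (orange) and untreated (blue) valve, with the mean and SD of the 5 valves as a dash and bar; every vertical axis starts at 0. COL3A1 runs from 1787 to 2777 CPM in pergolide valves and from 784 to 1460 CPM in untreated valves, without overlap.

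In the TGF-beta and BMP list 9 of 20 rose and 2 fell (5 and 0 with surrogate variables), with 5 rises without pergolide replicate 5 or untreated replicate 2 and 1 fall without untreated replicate 3. TGFBR1, the type I TGF-beta receptor kinase, was at 76.0, 99.9, 70.8, 85.8 and 76.5 CPM in pergolide valves and 51.9, 47.7, 62.7, 43.2 and 52.5 CPM in untreated valves (log2 fold change 0.66, SE 0.12, adjusted p = 4.31e-04). SMAD4, the shared partner of the receptor-driven SMADs, rose by 0.32 (SE 0.08). Both calls held with surrogate variables. Of 12 p38 and ERK kinase genes 6 rose and 3 fell (2 and 0 with surrogate variables), the falls numbering 1 without pergolide replicate 4 or 5. MAP2K6, the kinase directly above p38, was at 10.5, 12.5, 10.5, 10.4 and 10.5 CPM against 5.77, 3.52, 6.14, 5.00 and 4.37 CPM (log2 fold change 1.12, SE 0.19, adjusted p = 3.00e-04), and MAPK14, p38 alpha itself, rose by 0.32 log2 units. DUSP6, the phosphatase that ERK induces to switch itself off, was at 11.5, 7.69, 8.22, 10.2 and 9.43 CPM against 3.97, 3.25, 4.74, 2.35 and 5.29 CPM (log2 fold change 1.23, SE 0.22, adjusted p = 3.78e-04). In the edgeR fit with surrogate variables MAP2K6 and DUSP6 stayed called and MAPK14 did not; MAP2K6 lost its call in the limma-voom form.

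Of 17 growth factors and receptors 8 rose, 5 without pergolide replicate 3, and 2 fell, a count that was 1 whenever pergolide replicate 1, 3, 4 or 5 or untreated replicate 1, 2, 4 or 5 was left out. With surrogate variables 3 of the 17 rose in edgeR and 1 in limma-voom, and none fell. PDGFRB, the mesenchymal PDGF receptor, was at 49.4, 84.9, 46.8, 70.7 and 75.6 CPM in pergolide valves and 37.5, 36.0, 42.1, 40.3 and 38.9 CPM in untreated valves (log2 fold change 0.75, SE 0.14, adjusted p = 5.03e-04). Of 20 WNT and Notch genes 10 rose and 5 fell (2 and 2 with surrogate variables), with 6 rises without untreated replicate 2 and 3 falls without untreated replicate 3. FZD4, a WNT receptor, rose by 0.79 and NOTCH2, a Notch receptor, by 0.55 log2 units. Among 23 integrin and adhesion genes 8 rose and 3 fell (3 and 3 with surrogate variables), the rises numbering 4 without pergolide replicate 1 or untreated replicate 2 and 5 without pergolide replicate 4, pergolide replicate 5, untreated replicate 1 or untreated replicate 5. BCAR1, the adhesion scaffold p130Cas, fell from 106, 79.9, 78.5, 74.4 and 89.5 CPM to 50.0, 50.4, 62.4, 57.7 and 55.9 CPM (log2 fold change -0.63, SE 0.09, adjusted p = 6.06e-05), and ITGA11, a collagen-binding integrin, rose by 0.55 log2 units. PDGFRB, NOTCH2 and BCAR1 kept their calls in the edgeR fit with surrogate variables, while FZD4 and ITGA11 did not; PDGFRB lost its call in the limma-voom form.

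Of the receptors that pergolide is known to bind and the genes that handle serotonin, 3 could be measured by symbol. SLC22A3, a transporter that clears serotonin and other amines, was at 3.64, 3.08, 2.11, 2.29 and 1.42 CPM in pergolide valves and 0, 0, 1.05, 0.882 and 0.92 CPM in untreated valves (log2 fold change 1.93, SE 0.63, adjusted p = 0.0283). It lost that call without pergolide replicate 1 (adjusted p = 0.0654), pergolide replicate 2 (0.0562), untreated replicate 1 (0.0644) or untreated replicate 2 (0.0691), and with surrogate variables. The serotonin receptor gene HTR4 was at 6.51, 4.95, 3.16, 12.0 and 5.34 CPM against 5.05, 5.42, 4.56, 3.53 and 3.45 CPM (log2 fold change 0.55, SE 0.33, adjusted p = 0.23). MAOA, which breaks serotonin down, was at 46.7, 43.2, 27.8, 43.8 and 45.4 CPM against 36.1, 33.3, 52.8, 30.0 and 41.0 CPM (log2 fold change 0.09, SE 0.19, adjusted p = 0.766). Neither was called. The other members of that list have no symbol here and were not analysed.

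Of the 10 genes with a symbol and the smallest p 8 fell. HNRNPA2B1 (ENSOCUG00000026859), an RNA-packaging protein that guides splicing, was at 114, 129, 144, 140 and 131 CPM in pergolide valves and 297, 240, 269, 268 and 241 CPM in untreated valves (log2 fold change -1.0, SE 0.08, adjusted p = 1.78e-07). HNRNPH3, of the same broad family, was at 117, 121, 124, 119 and 105 CPM against 265, 245, 226, 250 and 226 CPM (log2 fold change -1.05, SE 0.09, adjusted p = 2.77e-07). Neither pair of groups came near to overlapping. RBM6, an RNA-binding splicing regulator, was at 92.9, 107, 105, 111 and 96.6 CPM against 189, 163, 177, 161 and 171 CPM (log2 fold change -0.75, SE 0.07, adjusted p = 5.32e-07). ANP32E (ENSOCUG00000022805), the chaperone that removes histone H2A.Z, was at 19.5, 24.6, 21.7, 20.6 and 20.1 CPM against 96.3, 75.3, 72.0, 82.7 and 68.6 CPM (log2 fold change -1.88, SE 0.14, adjusted p = 8.07e-08). DRAP1, part of a general transcription repressor, was at 29.1, 25.5, 31.0, 23.6 and 27.9 CPM against 103, 84.8, 59.2, 83.2 and 81.7 CPM (log2 fold change -1.58, SE 0.14, adjusted p = 2.21e-07). SET, a histone chaperone and phosphatase inhibitor, fell (log2 fold change -1.08), as did CALM3, which encodes calmodulin (log2 fold change -0.87), while SP3, a zinc-finger transcription factor, rose by 0.78 log2 units. Calls for all of these held with surrogate variables and with each valve left out.

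Of 88 tested splicing factors and hnRNPs 55 fell and 18 rose (median -0.37). With surrogate variables these counts were 28 and 8 in edgeR and 30 and 9 in limma-voom, with medians of -0.27 and -0.26. BCLAF1, a splicing-associated factor, fell from 328, 303, 320, 298 and 303 CPM to 205, 190, 197, 191 and 207 CPM (log2 fold change -0.65, SE 0.06, adjusted p = 6.65e-07). Of 46 ribosome assembly factors 26 fell and 8 rose (median -0.44), or 15 and 3 with surrogate variables (median -0.30). ZNHIT6, which helps build the snoRNA particles, was at 11.7, 11.6, 18.5, 13.2 and 13.2 CPM against 35.0, 31.2, 27.7, 32.7 and 26.0 CPM (log2 fold change -1.16, SE 0.16, adjusted p = 3.56e-05). LAS1L, which processes the large subunit's RNA, fell (log2 fold change -0.94), as did RSL24D1, an assembly factor of the same subunit (log2 fold change -0.90). All tested genes with a symbol, without surrogate variables, fell in 28.6% and rose in 28.1% of cases. Of 31 translation factors 12 fell and 12 rose (6 and 5 with surrogate variables, median 0.09 in place of -0.24), the rises numbering 7 without pergolide replicate 2 or untreated replicate 5. PAIP2, an inhibitor of the poly(A)-binding protein, fell from 184, 171, 162, 222 and 201 CPM to 102, 92.9, 107, 99.2 and 89.3 CPM (log2 fold change -0.94, SE 0.11, adjusted p = 5.23e-06).

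Ribosomal protein genes split in both directions, with 28 of 52 higher and 15 lower in pergolide valves (24 and 7 with surrogate variables) and 36 without overlap, beside 35.7% without overlap among all tested genes with a symbol. RPSA was at 29.9, 34.2, 31.4, 39.2 and 34.3 CPM against 12.3, 10.6, 11.6, 10.3 and 15 CPM (log2 fold change 1.5, SE 0.15, adjusted p = 6.65e-07), and FAU, whose product includes a small-subunit protein, was at 92.3, 102, 74.4, 72.6 and 86.6 CPM against 48.7, 25.7, 20.5, 22.4 and 27.4 CPM (log2 fold change 1.59, SE 0.20, adjusted p = 1.44e-05). RPL21 was at 0.575, 0.513, 0, 0.528 and 1.25 CPM against 6.13, 13.3, 13.2, 12.1 and 9.43 CPM (log2 fold change -4.16, SE 0.40, adjusted p = 6.43e-07), and RPS23 at 71.3, 73.0, 62.0, 73.9 and 69.4 CPM against 125, 111, 121, 106 and 109 CPM (log2 fold change -0.71, SE 0.08, adjusted p = 6.01e-06). The groups were far apart for each of the 4 genes, yet such genes have many near-identical copies among which reads can be split, and the handling of reads with several matches is not given in the sources used here. RPS7, which is among the 15 rises shown, was at 3.64, 2.90, 5.06, 4.05 and 5.16 CPM against 1.44, 0.813, 0.702, 1.76 and 0.92 CPM, a low level for such a gene; these loci are therefore reported as uncertain. Small nucleolar RNAs, which guide modification of ribosomal RNA and are processed from introns of other genes, also appear at both ends. SNORA73B rose by 2.17 and SNORA53 by 1.69 log2 units. SNORD99, SNORND104, SNORD83, SNORD81 and SNORD38 had log2 fold changes of -2.19, -1.99, -1.88, -1.65 and -1.56, and SNORD83 lost its call with surrogate variables, as did SNORD99 in the limma-voom form. Their host genes overlap them, so these too are uncertain. The remaining large falls were CCDC12, a spliceosome component, at -1.61, and TDRD5, known from the germ line, at -1.54, again as log2 fold changes.

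Genes with no symbol can be just as far apart. ENSOCUG00000018808 was at 1018, 862, 854, 808 and 944 CPM in pergolide valves and 178, 104, 92.2, 111 and 85.4 CPM in untreated valves (log2 fold change 2.98, SE 0.20, adjusted p = 1.11e-08). ENSOCUG00000023154 was at 3.45, 2.56, 2.32, 1.41 and 1.78 CPM against 14.4, 42.0, 53.2, 42.1 and 44.6 CPM (log2 fold change -4.10, SE 0.34, adjusted p = 1.58e-07). Both were chosen after their values were seen, and neither pair of groups overlapped.

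Of 24 tested folding genes of the endoplasmic reticulum 11 rose and 8 fell (7 and 3 with surrogate variables), the falls numbering 5 without pergolide replicate 4, pergolide replicate 5 or untreated replicate 1. XBP1, the transcription factor that expands the secretory apparatus, was at 83.1, 102, 81.8, 94.1 and 83.8 CPM in pergolide valves and 44.0, 54.5, 44.1, 37.9 and 51.5 CPM in untreated valves (log2 fold change 0.94, SE 0.11, adjusted p = 5.89e-06). SSR3, a subunit of the complex at the translocation channel, was at 93.5, 83.9, 68.5, 104 and 82.0 CPM against 37.2, 53.7, 61.1, 49.7 and 50.2 CPM (log2 fold change 0.77, SE 0.12, adjusted p = 1.48e-04). In the cytosol 12 of 34 chaperone and proteasome genes fell and 3 rose, or 4 and 3 with surrogate variables. PSMD7, a lid subunit of the proteasome, fell from 83.7, 59.9, 70.4, 84.4 and 72.3 CPM to 55.2, 51.4, 46.6, 43.6 and 45.0 CPM (log2 fold change -0.61, SE 0.10, adjusted p = 2.77e-04). BAG3, the co-chaperone of muscle quality control, fell (log2 fold change -0.78) and was not called with surrogate variables, under which XBP1, SSR3 and PSMD7 stayed called.

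**Figure D3:**
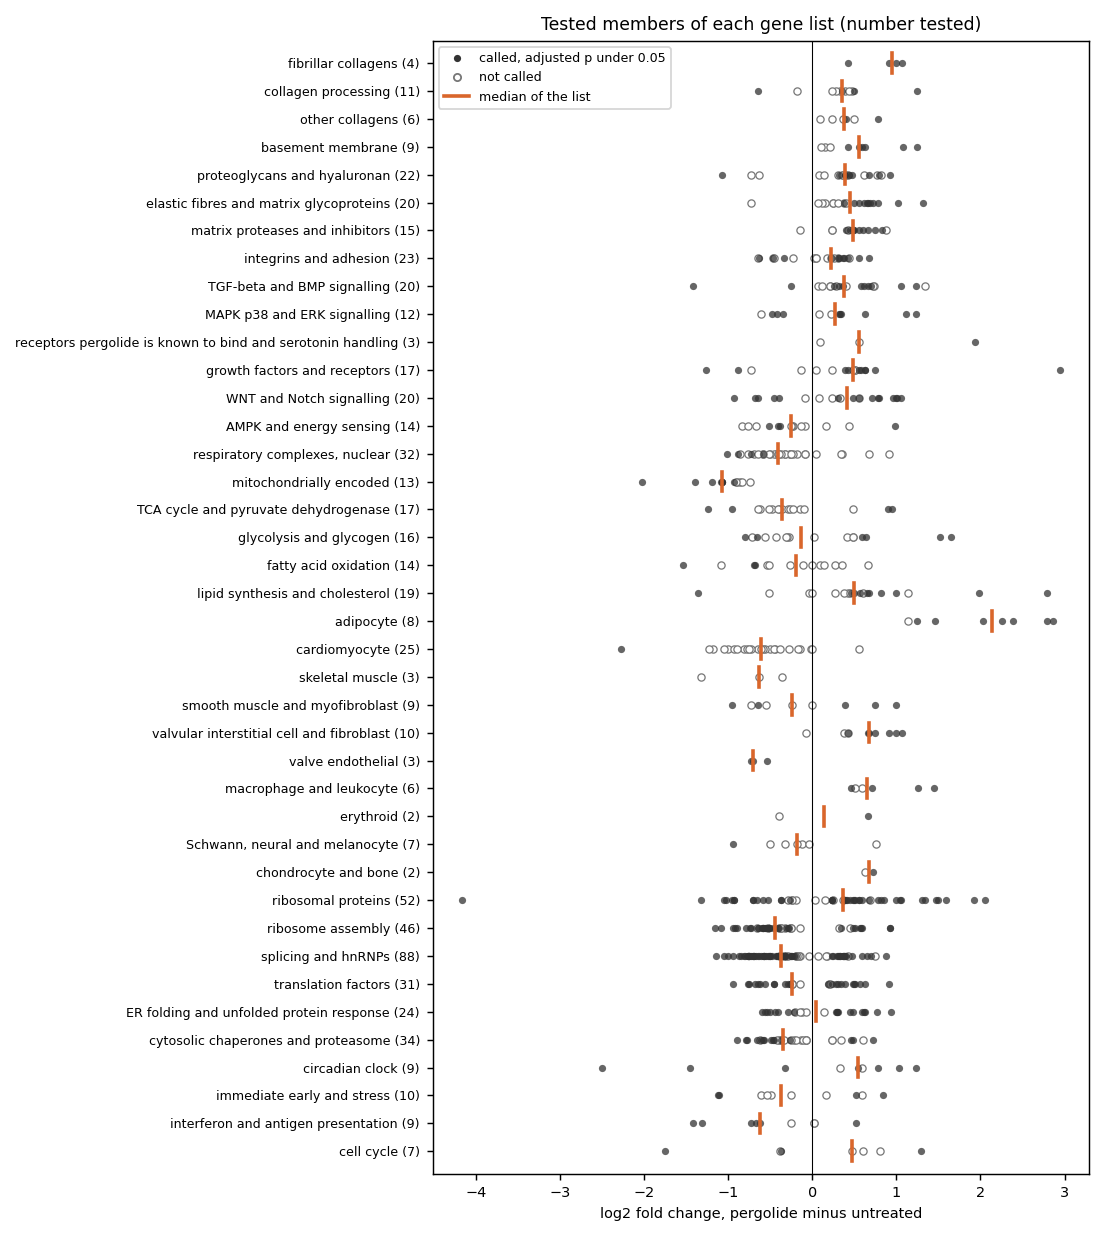
Log2 fold change, pergolide minus untreated, of each tested member of the 40 gene lists; filled circles are called at an adjusted p under 0.05, open circles are not, and the orange bar is the list's median. Medians reach 2.14 in the adipocyte list and -1.07 in the mitochondrially encoded list; the lists share members, and their genes with symbols were selected by the study on these samples.

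Of 10 markers of interstitial cells and fibroblasts 7 rose and none fell (4 and 0 with surrogate variables), COL1A1, COL1A2, COL3A1, LUM and PDGFRB among them, while VIM was at 2221, 2636, 2059, 3196 and 3114 CPM in pergolide valves and 3614, 2803, 3162, 1769 and 2610 CPM in untreated valves and was not called (log2 fold change -0.08, SE 0.19, adjusted p = 0.805). Only 3 of 16 endothelial markers in the list had a symbol, and all 3 fell. With surrogate variables 0 were called in edgeR and 1 fell in limma-voom. EMCN lost its call without pergolide replicate 2, 3 or 5 or untreated replicate 2, 3 or 5, which left 2 falls. PECAM1, an adhesion protein at endothelial junctions, was at 165, 118, 87.4, 152 and 115 CPM against 205, 252, 261, 99.7 and 241 CPM (log2 fold change -0.73, SE 0.21, adjusted p = 0.0123), and PROX1, the regulator of lymphatic and valve endothelium that heart muscle also uses, was at 61.9, 59.3, 73.5, 44.3 and 51.2 CPM against 108, 97.5, 73.2, 106 and 88.4 CPM (log2 fold change -0.70, SE 0.16, adjusted p = 0.00365). Untreated replicate 4 was below most pergolide valves for PECAM1. Of 6 macrophage and leukocyte markers 4 rose (2 with surrogate variables). CD53, a leukocyte surface protein, was at 9, 6.15, 3.16, 8.27 and 8.18 CPM against 3.25, 3.79, 3.16, 1.18 and 2.99 CPM (log2 fold change 1.26, SE 0.26, adjusted p = 0.00153). C1QA, the first complement component, was at 17.6, 30.6, 7.59, 21.5 and 19.0 CPM against 13.7, 5.42, 5.62, 3.82 and 7.82 CPM (log2 fold change 1.45, SE 0.39, adjusted p = 0.00901), and STAB1, a macrophage scavenger receptor, rose by 0.71 log2 units. Pergolide replicate 3 was the lowest of its group and inside the untreated range for these 3 genes, so their groups overlapped. LAPTM5, a lysosomal membrane protein of leukocytes, was at 32.0, 38.6, 33.5, 31.8 and 39.1 CPM against 24.2, 25.5, 30.2, 23.2 and 23.5 CPM, without overlap (log2 fold change 0.46, SE 0.11, adjusted p = 0.0053). In the edgeR fit with surrogate variables CD53 and C1QA stayed called, and PECAM1, PROX1, STAB1 and LAPTM5 did not; PROX1 kept its call in the limma-voom form.

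The endothelial list summed to 278, 209, 191, 238 and 199 CPM in pergolide valves and 365, 412, 395, 240 and 392 CPM in untreated valves, with PECAM1 the most abundant. The macrophage and leukocyte list, led by STAB1, summed to 145, 154, 103, 156 and 170 CPM against 93.4, 81.8, 100, 65.9 and 98.0 CPM, without overlap, while the endothelial sums overlapped through untreated replicate 4. No marker in either list was at 0. Whether cell numbers account for the differences of the matrix and signalling genes was not tested. Of 9 smooth muscle and myofibroblast genes 3 rose and 2 fell, or 1 and 1 with surrogate variables in edgeR. The rises there numbered 1 without pergolide replicate 3, pergolide replicate 5, untreated replicate 1 or untreated replicate 2, and the falls 1 without pergolide replicate 1, pergolide replicate 4, pergolide replicate 5, untreated replicate 1 or untreated replicate 4.

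**Figure D4:**
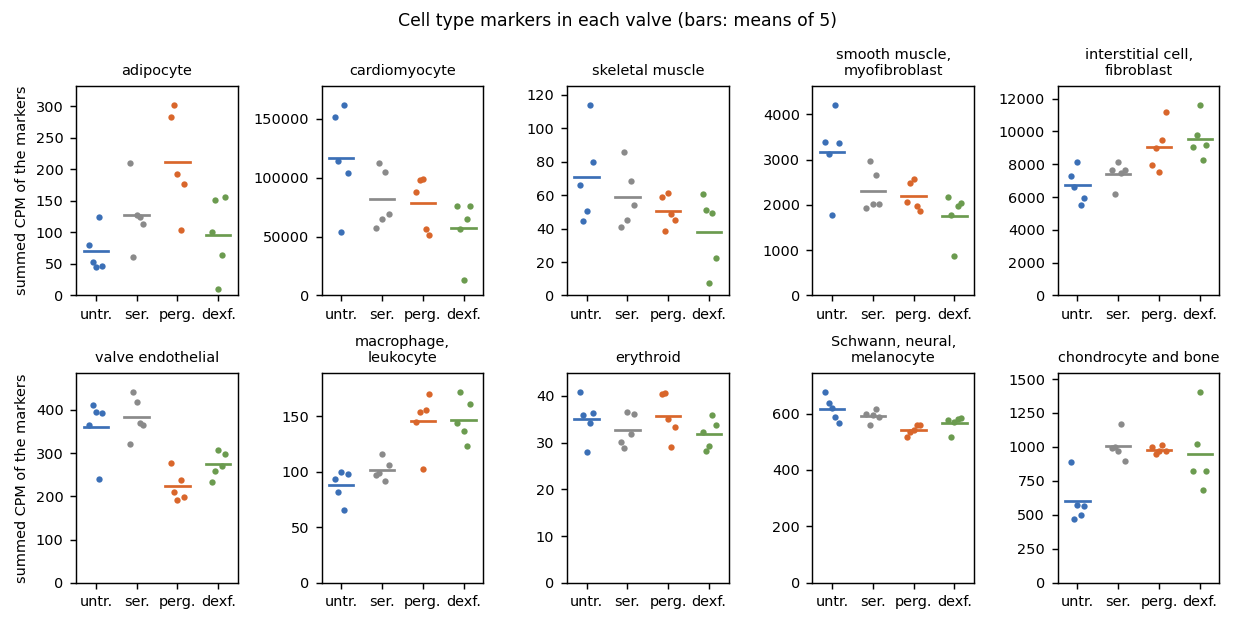
Summed CPM of the measured markers of 10 cell types in each valve, by treatment group, with the mean of the 5 valves as a bar; every vertical axis starts at 0. Cardiomyocyte markers are lowest in untreated replicate 3 among the untreated valves, at 53692 CPM, and in pergolide replicates 4 and 5 among the pergolide valves, at 56348 and 51289 CPM.

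Pergolide was also tested directly against the other treatments, which share the 5 pergolide valves with the comparison above but not the untreated valves. Pergolide, an ergoline, and dexfenfluramine, an amphetamine derivative, are unlike in structure and were given at different doses, so these are differences between the treatments as given. Against dexfenfluramine 0 of 8683 genes (0.0%) were called by edgeR, and 613 (7.06%) had an unadjusted p under 0.05. DESeq2 and limma-voom also called 0, with 682 and 712 genes at an unadjusted p under 0.05. Intervals differed widely in width. For ANP32E the log2 difference, pergolide minus dexfenfluramine, had a 95% interval of -0.37 to 0.25, for HNRNPA2B1 -0.27 to 0.08 and for COL3A1 -0.29 to 0.40. Much wider intervals that lay above 0 held for CIDEA, 0.19 to 2.56, and THRSP, 1.19 to 3.58 (adjusted p = 0.68 and 0.348). No difference passed the threshold, which does not show that the drugs act alike.

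Against serotonin 2389 of 8683 genes (27.5%) were called, 1077 (12.4%) higher and 1312 (15.1%) lower in pergolide valves; 3323 (38.3%) had an unadjusted p under 0.05, and 1549 were called in the edgeR fit with surrogate variables. ANP32E was at 105 ± 24.0 CPM in serotonin valves (SD, n = 5) and 21.3 ± 2.01 CPM in pergolide valves (log2 fold change -2.30, SE 0.14, adjusted p = 2.14e-09). S100A6 was at 5.23 ± 2.24 against 21.3 ± 3.84 CPM (log2 fold change 2.01, SE 0.26, adjusted p = 5.86e-06). SERPINH1 was at 10.6 ± 2.57 against 26.1 ± 4.64 CPM (log2 fold change 1.30, SE 0.20, adjusted p = 4.06e-05). Untreated valves averaged 79.0 ± 11, 5.88 ± 1.94 and 10.9 ± 2.70 CPM for the same genes, so pergolide stood apart from both groups. It did not stand apart from dexfenfluramine for ANP32E (22.2 ± 3.2 CPM in dexfenfluramine valves) or S100A6 (20.9 ± 5.18 CPM). The log2 differences, pergolide minus dexfenfluramine, were -0.06 and 0.04, and neither was called. SERPINH1 was not called against dexfenfluramine either, as no gene was.

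Some genes called against untreated valves were not called against serotonin. COL14A1 was at 1026 ± 144 CPM in serotonin valves and 1049 ± 110 CPM in pergolide valves (log2 fold change 0.03, 95% interval -0.28 to 0.34). MGP gave a log2 fold change of -0.06 (95% interval -0.42 to 0.31), NR1D2 0.16 (-0.27 to 0.59) and ARNTL 0.09 (-1.40 to 1.59). None of these 4 was called in that comparison. Of the 15 largest rises, CYP3E1, KLB, CIDEA, ABCD2, MGST1, PPARG and PTGER3 were not called against serotonin either. Their log2 fold changes there ran from 0.46 (PPARG) to 0.9 (KLB). SNORA73B, RPS7, HP, S100A6, EEPD1, SNORA53, TPRA1 and PHKB were called higher than in serotonin valves. In the adipocyte list 1 of 8 tested genes was called against serotonin. FBLN7 was at 42.4 ± 8.92 CPM with serotonin, 36.5 ± 7.89 CPM with dexfenfluramine and 57.6 ± 9.97 CPM with pergolide, and the direct tests gave log2 fold changes of 0.44 and 0.66, neither called (adjusted p = 0.0658 and 0.457).

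**Figure D5:**
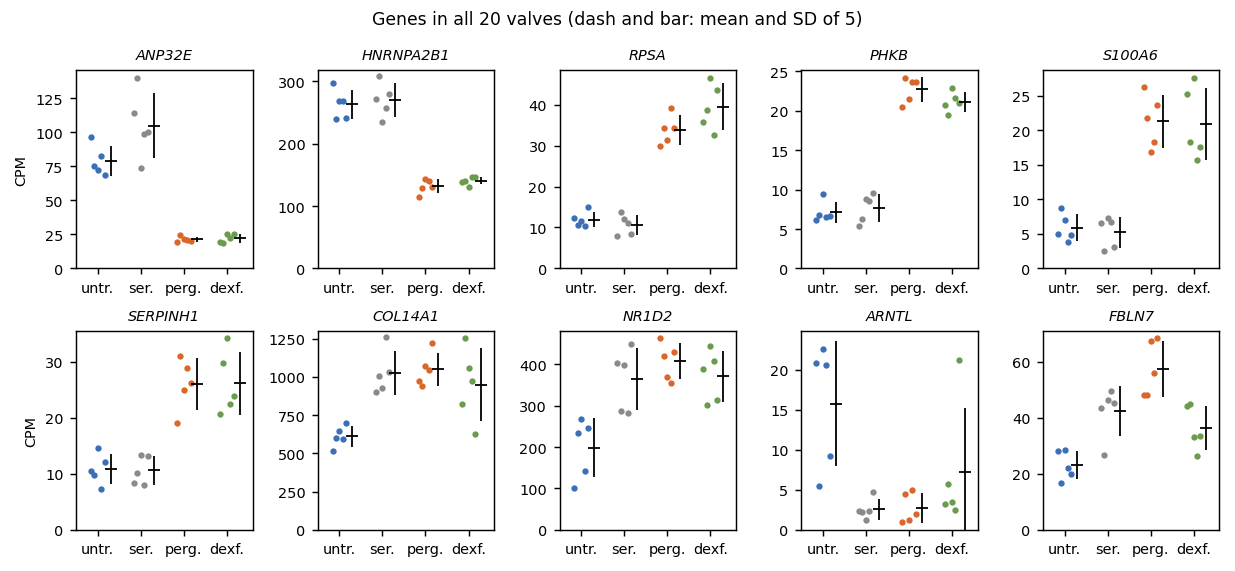
CPM of 10 genes in all 20 valves by treatment group, with the mean and SD of the 5 valves as a dash and bar; every vertical axis starts at 0. ANP32E is at 79.0 CPM in untreated and 105 CPM in serotonin valves on average, and at 21.3 and 22.2 CPM in pergolide and dexfenfluramine valves.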

How the data were processed

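RNA was measured in 20 rabbit tricuspid valves, 5 per treatment group, grouped by their labels. The authors aligned reads to the rabbit genome (oryCun2) with TopHat2 2.1.1 and deposited counts per gene made with HTSeq; strand setting, handling of reads with several matches and annotation release are not given in the sources used here. The file holds 23669 genes, of which 13749 have a count in any valve.

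Counts were tested with edgeR 4.0.16 (quasi-likelihood F test, TMM factors, filterByExpr over 4 groups) in R 4.3.3, in 1 model of all 20 valves without covariates. Pergolide was compared with untreated, serotonin and dexfenfluramine valves. Adjusted p values are Benjamini-Hochberg over 8683 tested genes, with 0.05 as the threshold. The SE is the absolute log2 fold change over the square root of F, and 95% intervals use t with 16 degrees of freedom. CPM were computed from the deposited counts and TMM-scaled library sizes. Library means were compared by exact permutation of the 10 valves. Tables and figures used Python 3.11.15, numpy 2.4.6, pandas 2.3.3, scipy 1.17.1 and matplotlib 3.10.9.

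Alternatives used DESeq2 1.42.0, limma-voom (limma 3.58.1), 4 surrogate variables (sva 3.50.0), other size factors and filters, a replicate block, only the groups compared, a threshold of 0.01, and each valve left out. The code was tested on simulated data.

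Symbols came from the symbol column of a supplementary table, by identifier; 3519 genes have one. Its 273 entries whose identifiers had lost zeros, and 3 shorter identifiers, were not used, and 564 identifiers with 1 zero too many were corrected. That table also holds the study's own fold changes, which were neither used nor compared.

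Genes named are the 15 largest rises and the 15 largest falls that were called, have a symbol, average 1 or more in log2 CPM and separate the groups fully; the 10 smallest p; the 4 members of each of 40 lists with the smallest p, and the most abundant marker; receptors pergolide is known to bind and genes of serotonin handling; 8 single genes chosen by name (COL1A2, MGP, RPL11, HAPLN1, mir107, PRKAA1, PRKAA2 and MAPK14); and the most abundant gene. The text gives a selection of the list members. Members and lists were chosen with earlier results of these data known.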

Additional observations from a re-analysis of the deposited data

Results flagged for a closer look

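In each group of 5 valves the highest or lowest value was marked when its gap to the nearest other valve was a large share of the group's range. Of 248 groups of 5 examined 22 were marked, while chance marks about 1 in 20 groups; the groups are not independent, since they come from the same 10 valves. No cause was tested.

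In the untreated group, replicate 3 stood high for PHKB (9.48 CPM; others 6.13 to 6.77), COL5A2 (481 CPM; others 357 to 367) and LTBP1 (334 CPM; others 192 to 209). It stood low for PDK2 (11.9 CPM; others 29.9 to 36.1). Replicate 4 stood high for SNORA53 (18.5 CPM; others 5.05 to 7.59), ADIPOQ (55.6 CPM; others 16.9 to 27.6) and MCM10 (2.65 CPM; others 0.527 to 1.08), and low for the summed endothelial markers (240 CPM; others 365 to 412). Replicate 1 was high for MGP (817 CPM; others 421 to 509), FAU (48.7 CPM; others 20.5 to 27.4) and the summed chondrocyte and bone markers, most of whose CPM is MGP (888 CPM; others 472 to 569). CALM3 was low in the same valve (423 CPM; others 460 to 471).

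In the pergolide group, replicate 5 stood high for COL3A1 (2777 CPM; others 1787 to 2027), COL5A2 (604 CPM; others 480 to 505) and ITGA11 (75.6 CPM; others 51.8 to 56.7). Replicate 3 was high for SET (86.6 CPM; others 64.6 to 69.5) and ZNHIT6 (18.5 CPM; others 11.6 to 13.2), and low for LTBP1 (319 CPM; others 353 to 364) and MAOA (27.8 CPM; others 43.2 to 46.7). SNORD99 was low in replicate 4 (2.29 CPM; others 3.58 to 4.10). Replicate 2 was high for MAP2K6 (12.5 CPM; others 10.4 to 10.5) and had the deepest library (5921025 counts; others 4484239 to 4848510).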

How the results depend on the processing

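Against untreated valves 2157 genes were called. The count was 1115 with surrogate variables in edgeR, 1156 with them in limma-voom, and 1191 at an adjusted p under 0.01; the last follows from the stricter threshold, and the cause of the first 2 was not tested. Leaving out 1 valve gave 1772 (without pergolide replicate 5) to 2285 (without untreated replicate 3). Other alternatives gave 1856 (only the groups compared) to 2268 (DESeq2). Against serotonin 2389 genes were called, 1549 with surrogate variables in edgeR and 1506 in limma-voom, and 2079 to 2485 with 1 valve left out. Against dexfenfluramine every alternative called 0. Normalization and filters for the latter comparisons, and leaving out their own valves, were chosen after seeing the data.

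The labels number valves 1 to 5 in each group. Correlations between pergolide and untreated valves of the same number ran from -0.342 to 0.069, with 0 of 5 pairs over 0.1. Of the pergolide valves 0 correlated best with their own number. These values show no sign of a pairing by number but cannot exclude one, because other variation between valves also enters them. A fit with the number as a replicate block called 1988 genes against untreated, 2228 against serotonin and 0 against dexfenfluramine.

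Among 182 named genes none changed direction past the threshold where an alternative gave a value; 150 had one with at least 10 counts in each of the 10 valves, and 178 with only the groups compared. With surrogate variables 67 lost their calls in edgeR and 70 in limma-voom, and 3 gained one in each. Counts in 30 of 40 lists moved by more than 1.5 times in edgeR with surrogate variables and in 32 in limma-voom. Among nuclear respiratory subunits and fatty acid oxidation the calls turned from falls to rises. Medians turned positive in both forms for nuclear respiratory subunits, the citric acid cycle, glycolysis and translation factors. The smooth muscle and myofibroblast median turned from -0.24 to 0.0 in edgeR and 0.01 in limma-voom. Depth limits genes near 1 CPM, where a valve holds only a few counts.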

Other observations

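Of 9 tested interferon-induced and antigen presentation genes 5 fell and 1 rose (median -0.62 against 0.02 over all tested genes), or 2 and 1 in edgeR with surrogate variables and 1 and 1 in limma-voom; the study chose the symbols on these samples, so such counts are not independent. GBP1, an interferon-induced GTPase, was at 3.64, 1.54, 1.26, 1.93 and 2.49 CPM in pergolide valves and 6.85, 3.25, 3.69, 4.41 and 11.3 CPM in untreated valves (log2 fold change -1.42, SE 0.39, adjusted p = 0.011). The groups overlapped, and GBP1 lost its call without untreated replicate 5 (adjusted p = 0.0574) and with surrogate variables. The falls in the list numbered 2 without pergolide replicate 3 or untreated replicate 5, and 3 without pergolide replicate 1, 4 or 5 or untreated replicate 2 or 4. The rise was absent without pergolide replicate 4, untreated replicate 4 or untreated replicate 5.

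Among 10 immediate early and stress genes 2 rose and 2 fell (2 and 1 in edgeR with surrogate variables, 1 and 0 in limma-voom). TSC22D3, a glucocorticoid-induced factor also called GILZ, was at 74.7, 84.1, 68.9, 115 and 89.3 CPM in pergolide valves and 59.2, 44.7, 49.3, 39.4 and 49.2 CPM in untreated valves (log2 fold change 0.84, SE 0.15, adjusted p = 5.70e-04). GADD45A, a stress sensor that binds p38 activators, was at 36.6, 45.8, 40.7, 23.2 and 20.8 CPM against 97.8, 59.6, 58.6, 81.5 and 67.9 CPM (log2 fold change -1.12, SE 0.26, adjusted p = 0.00317). Neither gene's groups overlapped; GADD45A lost its call in the limma-voom fit with surrogate variables. Leaving out untreated replicate 2 gave 1 rise, untreated replicate 1 gave 1 fall and pergolide replicate 4 gave 4 falls. Of 7 cell cycle genes 1 rose and 2 fell (0 and 2 with surrogate variables), with 2 rises without untreated replicate 1 or 5, and 1 fall without pergolide replicate 1, 2 or 4 or untreated replicate 2. MCM10, which helps start DNA replication, was at 4.21, 2.05, 3.37, 1.93 and 3.20 CPM against 1.08, 1.08, 0.527, 2.65 and 0.92 CPM (log2 fold change 1.29, SE 0.37, adjusted p = 0.0148). The MCM10 groups overlapped, and its call was lost with surrogate variables.

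The remaining marker lists held few genes with a symbol. None of 3 skeletal muscle markers was called, although 1 fell without pergolide replicate 3, pergolide replicate 5, untreated replicate 2 or untreated replicate 3. Of 2 erythroid markers 1 rose, a count of 0 without pergolide replicate 1 or untreated replicate 1, 2, 3 or 4, and 1 fell without pergolide replicate 2. Of 7 Schwann, neural and melanocyte markers 1 fell; that count was 0 without pergolide replicate 1, 2 or 5 or untreated replicate 1 or 4, and 2 without pergolide replicate 3 or untreated replicate 5. Of 2 chondrocyte and bone markers MGP rose, and 2 rose without pergolide replicate 3 or with surrogate variables. Those variables also gave 0 calls among the erythroid and the Schwann, neural and melanocyte markers, and 1 fall among the skeletal muscle markers.

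Of the single genes chosen by name, 2 are not described above. RPL11, a ribosomal protein gene, was at 193, 179, 159, 168 and 205 CPM in pergolide valves and 266, 227, 248, 188 and 239 CPM in untreated valves (log2 fold change -0.37, SE 0.12, adjusted p = 0.0256). The RPL11 groups overlapped, and its adjusted p was 0.0641 without pergolide replicate 3, 0.0625 without pergolide replicate 4 and 0.0631 without untreated replicate 1; it was not called with surrogate variables. The microRNA gene mir107 had too few counts to be tested, at 0.192, 0, 0.632, 0.352 and 0.534 CPM against 0.721, 1.08, 0.176, 2.35 and 1.15 CPM.

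PLEKHB2 was chosen after its values were seen. It was at 91.0, 94.3, 88.3, 0 and 0 CPM in pergolide valves and 99.6, 106, 51.8, 57.7 and 43.0 CPM in untreated valves, so that replicates 4 and 5 of the pergolide group had no count (log2 fold change -0.38, SE 1.01, adjusted p = 0.816).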
